A study of Mus musculus with 8 samples.

Results

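Control mouse epidermis was compared between 52 and 25 DPI, both written as the labels give them, to describe how its transcriptome differed with time in the absence of the Ovol1/2 iDKO genotype. The comparison took the 4 libraries labelled control, 2 biological replicates at 52 DPI and 2 at 25 DPI, out of 8 in the series, and read the column of counts made without regard to strand. The other 4 libraries came from Ovol1/2 iDKO mice at the same times and were used to set the control values beside the same contrast in other animals. They also entered the fits of all 8 libraries and some of the fits with a control library left out. All 8 samples were epidermis taken from skin with trypsin, and the libraries were prepared from Trizol RNA with Clontech's SMART-seq v4 low-input kit. The labels name the control mice as control and give no strain, age, body site, sex, transgene or treatment for them, and what DPI counts from is not given in the sources used here. Only genes on the 19 autosomes are described, and 15528 of them had enough counts to be tested.

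The epidermis is renewed by basal keratinocytes, which adhere to the basement membrane, divide, and move outward through the spinous and granular layers to form the cornified barrier. A trypsin-separated sheet also carries parts of the hair follicle and sebaceous gland, whose activity follows the hair cycle of growth (anagen), regression (catagen) and rest (telogen), and the immune cells and melanocytes that live among the keratinocytes. In mouse epidermis these residents are chiefly Langerhans cells and the dendritic epidermal T cells with a gamma-delta receptor. Since whole sheets were measured, fewer cells of a type and less RNA per cell cannot be told apart in any value given here.

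The 25 DPI libraries held 16964289 and 50711381 counts and the 52 DPI libraries 24732179 and 13024905, replicate 1 first, an order kept for all pairs of values that follow. Levels are CPM, counts relative to library size (edgeR's cpm), scaled by the TMM factors of these 4 libraries, and changes are log2 differences of 52 minus 25 DPI. Markers of keratinocytes were abundant in every library: Krt14, a basal keratin, stood at 11800 and 9681 CPM and then at 18580 and 11300, and Krt10, a spinous keratin, at 4528 and 3185 and then at 1521 and 4619. The 4 Y-linked genes examined were present in both 25 DPI libraries and at 0 in both 52 DPI libraries, while Xist went from 0.137 and 0.117 CPM to 134 and 1112, so the sex of the mice and time cannot be told apart in this comparison. The same change of sex was present in the iDKO libraries. The replicate 1 libraries had second-strand shares of 49.97% and 49.9% among counts assigned by strand, and those of replicate 2 had 95.4% and 95.6%. The comparison was fitted with the replicate number as a block. Values given without 25 DPI replicate 1 come from a fit with this block of all remaining libraries, iDKO included, unless the block is said to be left out. The labels call the samples biological replicates. The fit leaves 1 residual degree of freedom, and edgeR's quasi-likelihood test draws each gene's spread toward a trend over all genes. Its p-values thus rest on a spread largely shared across genes, and say little about how well a single gene agreed between the pairs. Ch25h, with changes of 1.95 and 2.11 in the pairs, had a standard error (SE) of 0.797. Crispld2, with 4.63 and 0.389, had an SE of 0.973.

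The library of 25 DPI replicate 1 stood apart. Its log2 CPM correlated at 0.789 with those of 25 DPI replicate 2 over the 15528 genes and at 0.89 with 52 DPI replicate 1, against 0.923 to 0.966 among the other 3 libraries. The change with time in the replicate 1 pair correlated at -0.0995 (Pearson) with that in the replicate 2 pair over these genes. Across all genes the 2 pairs thus did not agree in their change. In the replicate 1 pair the change with time moved with the summed exon length of the gene, with a Spearman correlation across genes of 0.47, and in the replicate 2 pair hardly, at -0.128. Median changes in the replicate 1 pair ran from -0.97 in the quartile of shortest genes to 0.56 in that of the longest, and in the replicate 2 pair from 0.078 to -0.097. Short genes were thus lower and long genes higher at 52 DPI in 1 pair of 2, and for that reason the median exon length is given beside groups of short or long genes. A fit with offsets for length, added after seeing the data, is given beside each control median of a list, and beyond that the part of length in the results was not tested.

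**Figure D1:**
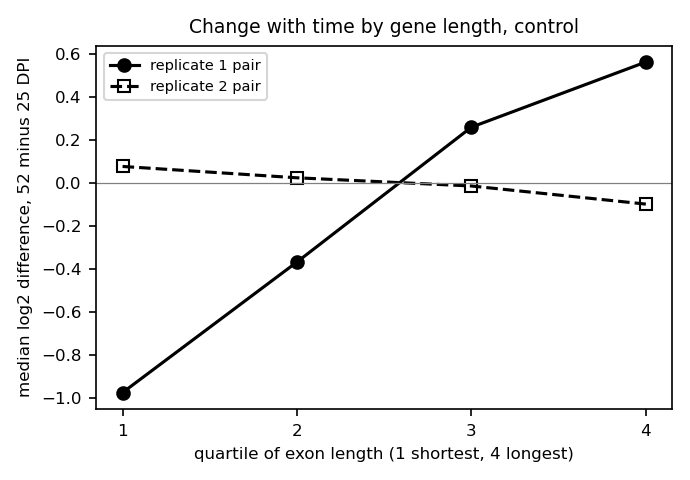
Median log2 difference (52 minus 25 DPI) of autosomal genes by quartile of summed exon length, from 1, the shortest, to 4, the longest, with filled circles for the replicate 1 pair and open squares for the replicate 2 pair. The replicate 1 pair rises from -0.97 to 0.56 with length, while the replicate 2 pair stays between 0.078 and -0.097.

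Between 25 and 52 DPI 7 genes fell and 0 rose (edgeR's quasi-likelihood test with the replicate number as a block, Benjamini-Hochberg adjusted p under 0.05), which is 0.0451% and 0% of the autosomal genes tested. An unadjusted p under 0.05 was reached by 104 genes upward (0.67%) and 199 downward (1.28%). Those called lower were Adh1, which encodes an alcohol dehydrogenase that also acts on retinol, Acoxl, related to the acyl-CoA oxidases, Cldn10, a claudin of tight junctions, Tubb3, the beta-tubulin typical of neurons, Ccr6, the receptor of the chemokine Ccl20, and the processed pseudogenes Gm6749 and Gm12912. Other tools called more: DESeq2 gave 14 lower and 1 higher, the collagen gene Col8a2, and limma-voom 16 lower and 1 higher, the keratin gene Krt6b, and both lists held all 7.

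Adh1 stood at 65.0 and 6.98 CPM at 25 DPI and at 0.853 and 1.38 at 52 DPI. The groups did not overlap, and the log2 fold change was -4.33 (SE 0.93, adjusted p = 0.00602, edgeR). Acoxl went from 37.4 and 5.23 CPM to 0.356 and 1.30, a log2 fold change of -4.31 (SE 1.02, adjusted p = 0.0297, edgeR). Cldn10 was at 106 and 2.76 CPM and then at 0.924 and 0.306 (-5.44, SE 1.04, adjusted p = 0.000363, edgeR). In each of these the 25 DPI replicate 1 library was the highest by far and the 25 DPI replicate 2 library still lay above both 52 DPI libraries. Tubb3 fell from 23.5 and 1.89 CPM to 0.107 and 0.0765 (-6.80, SE 1.31), and Ccr6 from 34.6 and 1.54 to 1.10 and 0.153 (-4.42, SE 1.02), with edgeR adjusted p of 0.000398 and 0.0253. Of the pseudogenes, Gm6749 had 38.8 and 1.01 CPM and then 0.284 and 0, and Gm12912 had 8.52 and 3.17 and then 0 and 0.229. Reads of a processed pseudogene and of its parent gene may have been split by the counting, so these values are uncertain. These 7 genes were named after their values were seen, since most lay under the mean level set for named genes.

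The calls depended on the libraries and on the settings. With the length offsets 5 of the 7 were called, and Acoxl and Gm12912 were not. With no filter on low counts 6 genes were called, 5 of the 7 among them, and Ccr6 and Acoxl were not. Without the block 0 genes were called. The blocked fit of all 8 libraries, with none left out, also called 0. Blocked fits of both genotypes with a control library left out therefore cannot show which library the calls depended on. With 3 control libraries and no block, 15 (3 of the 7 among them) were called lower without 25 DPI replicate 2 and 0 without any of the others. Leaving out 25 DPI replicate 1, in the blocked fit that holds the iDKO libraries, gave log2 fold changes of -3.07 for Adh1, -2.74 for Acoxl and -2.43 for Cldn10. Those of Tubb3 and Ccr6 were -4.01 and -1.77. With 3 control libraries and no block the changes were -2.64, -2.69, -2.09, -4.24 and -1.20 in this order, all with the same sign. In the iDKO libraries, which the control comparison does not use, Adh1 fell as well, from 25.8 and 4.84 CPM to 2.29 and 1.05 (-2.89, adjusted p = 0.0148, edgeR), while Acoxl had a change of -3.07, Cldn10 of -0.53 and Ccr6 of 0.26 without a call. Adh1 lies on chromosome 3 at 138260991 to 138290698 on the plus strand and Acoxl on chromosome 2 at 127838876 to 128123873 on the plus strand (GRCm38).

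Sebaceous gland genes formed the group with the most members not overlapping between times. The sebaceous gland opens into the hair follicle and fills its cells with wax esters and triglycerides. Of the 14 autosomal members tested, 10 were lower in both pairs and did not overlap between times, against 24.3% lower in both pairs and 10.1% not overlapping and lower over all genes tested, and 1, Prdm1, was higher. The median log2 fold change was -1.44, against -0.06 over all genes, with -2.81 in the replicate 1 pair and -0.21 in the replicate 2 pair. With the length offsets it was -1.45, and the members' median exon length of 3560 bases lay close to the 3879 of all genes. No member was called. Without 25 DPI replicate 1 the median was -0.30 (-0.44 with 3 control libraries and no block), and without 52 DPI replicate 1 it was -0.53.

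Among regulators, Pparg, the nuclear receptor that drives lipid-storing differentiation of sebocytes, had 34.2 and 3.19 CPM at 25 DPI and 1.17 and 1.22 at 52 DPI. Its log2 fold change was -3.18 (SE 0.96, adjusted p = 0.43, edgeR). Mc5r, the melanocortin receptor of sebocytes, was at 8.18 and 1.95 CPM and then at 0.0711 and 0.382 (-4.41, SE 1.33). Both 25 DPI libraries were above both 52 DPI libraries for each receptor. The adjusted p of Mc5r was also 0.43 (edgeR). The stretches around a RefSeq start of Pparg and of Adh1 are shown as examples of a sebaceous regulator and of a called enzyme. Both are RefSeq windows of 300 bases on GRCm38.p6, plus strand, Pparg at chr6:115360894-115361193 and Adh1 at chr3:138277335-138277634. Capitals mark AGGTCA, the half-site read by many nuclear receptors, searched on both strands, and CACGTG, an E-box, which reads the same on both strands.
Pparg: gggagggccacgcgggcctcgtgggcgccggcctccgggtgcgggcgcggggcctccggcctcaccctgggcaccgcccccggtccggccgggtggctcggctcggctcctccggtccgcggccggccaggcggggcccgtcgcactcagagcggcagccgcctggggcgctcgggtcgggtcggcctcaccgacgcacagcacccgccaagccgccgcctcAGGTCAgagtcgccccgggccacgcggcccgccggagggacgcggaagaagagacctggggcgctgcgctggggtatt
Adh1: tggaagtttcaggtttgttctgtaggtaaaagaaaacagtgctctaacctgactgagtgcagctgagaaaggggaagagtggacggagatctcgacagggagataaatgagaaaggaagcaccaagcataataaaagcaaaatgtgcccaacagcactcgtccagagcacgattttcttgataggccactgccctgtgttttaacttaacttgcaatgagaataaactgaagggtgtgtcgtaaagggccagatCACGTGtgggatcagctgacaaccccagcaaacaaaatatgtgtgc
The match in Pparg begins 28 bases before the start and that in Adh1 4 bases after it. AGGTCA was found in 3 of 13 windows of the sebaceous list, which belong to Pparg and Plin2 (23.1%, 10 genes with an entry), against 16.3% of the 32851 windows of all genes. It was found in 1 of 8 windows of the called genes, that of Ccr6 (12.5%, 6 genes with an entry). CACGTG was found in 1 of these 8, that of Adh1 (12.5%), and in 2 of the 13 sebaceous windows, those of Elovl4 and Plin2 (15.4%), against 7.15% of all windows. These matches are a description of the letters and of no measured binding.

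Among the enzymes and lipid droplet genes, Cidea, a lipid droplet protein, had 106 and 4.45 CPM at 25 DPI and 1.32 and 2.68 at 52 DPI (-3.55, SE 1.05, adjusted p = 0.39, edgeR). Elovl3, which elongates long fatty acids, was at 36.9 and 2.70 CPM and then at 0.676 and 1.45 (-3.35). Far2, a fatty acyl reductase that supplies the alcohols of wax esters, was at 45.8 and 12.3 CPM and then at 3.31 and 8.11 (-2.19). Again both 25 DPI libraries lay above both 52 DPI libraries, by much in the replicate 1 pair and by less than 2-fold in the replicate 2 pair. Scd3, a stearoyl-CoA desaturase, had 7.08 and 5.12 CPM and then 0.711 and 3.52, and its change turned from -1.89 to 0.11 without 52 DPI replicate 1. The broader lipid enzymes differed less: Scd1 went from 301 and 299 CPM to 145 and 288, Dgat2 from 147 and 44.2 to 41.1 and 40.3, and Acsbg1 from 301 and 317 to 204 and 259. The fatty acid binding protein gene Fabp5 (789.1 and 59.0 CPM, then 54.5 and 92.9), the droplet coat gene Plin2 (306 and 30.6, then 38.3 and 41.9) and Elovl4 were split between pairs. Prdm1, a transcription factor of sebaceous and other skin cells, had 5.29 and 2.28 CPM and then 7.04 and 7.80. Fa2h, which hydroxylates fatty acids and was not on the list, had 22.9 and 9.86 CPM and then 4.16 and 4.13 (-1.86), so that its groups were apart as well.

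Sebaceous genes were low at 52 DPI in the iDKO libraries too. There 9 of the 14 members were lower in both pairs, against 3664 of the 15035 genes in both fits. The median was -0.70, and Scd3 (-3.71, adjusted p = 4.45e-06), Elovl3 (-3.92, adjusted p = 0.000617), Far2 (-2.43, adjusted p = 0.00749), Cidea (-2.84, adjusted p = 0.00754) and Fa2h (-2.63, adjusted p = 0.0168) fell (edgeR with the replicate block). Cidea stood at 50.4 and 6.56 CPM and then at 2.44 and 2.77 in those libraries. The difference of the change between genotypes was not called for any of the 5, with unadjusted p from 0.14 for Scd3 to 0.59 for Cidea (edgeR, interaction over all 8 libraries).

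**Figure D2:**
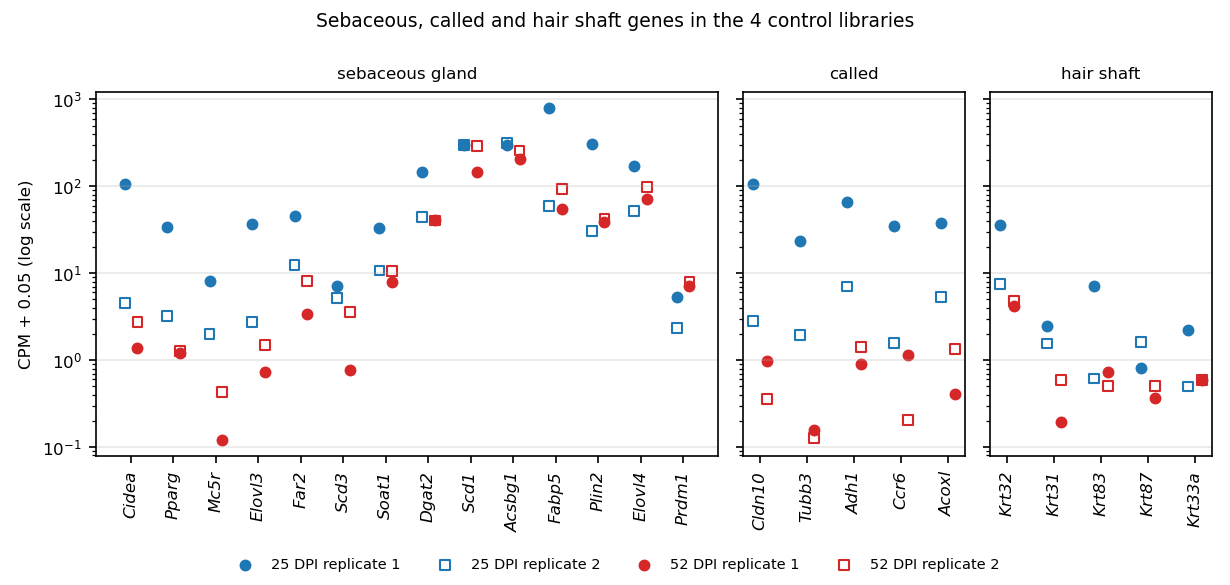
Level in CPM (log axis, 0.05 added) of the 14 sebaceous gland genes tested, of the 5 called protein-coding genes and of the 5 hair shaft keratins tested, 1 point for each control library, blue for 25 DPI and red for 52 DPI, filled circles for replicate 1 and open squares for replicate 2. The 25 DPI replicate 1 library is the highest for most of them, and for Cidea, Pparg, Mc5r, Elovl3, Far2 and Scd3 both blue points lie above both red ones.

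Genes of the growing hair were few and low. Hair shaft keratins are made by the matrix of anagen follicles, and 5 of 15 had enough counts to be tested, 1 of 57 hair keratin-associated protein genes and 3 of 12 genes of the inner root sheath. Shh, the signal of the anagen matrix, had 7 counts in each 25 DPI library and 0 in each at 52 DPI. These are raw counts. The replicate 2 library held 50711381 counts at 25 DPI and 13024905 at 52 DPI, so 0 in the latter says little about a change. Of the 5 shaft keratins 4 were lower in both pairs, against 24.3% over all genes, with a median of -1.87 and exons of 1842 bases at the median. The median was -1.40 with the length offsets and, without 25 DPI replicate 1, -1.10 with the block and -0.71 without it. Krt32 had 35.4 and 7.39 CPM at 25 DPI and 4.20 and 4.74 at 52 DPI (-1.87, SE 0.82, unadjusted p = 0.023, edgeR), and Krt31 had 2.41 and 1.498 and then 0.142 and 0.535 (-2.71, unadjusted p = 0.041, edgeR). Both were lower in each 52 DPI library than in either 25 DPI library and neither was called. Lef1 and Hoxc13, transcription factors of the hair matrix and cortex, were high in 25 DPI replicate 1 alone, Lef1 at 8.04 CPM against 0.681 to 1.07 in the other 3 and Hoxc13 at 18.9 against 3.03 to 4.44. Over the 12 matrix and anagen genes tested the median was 0.10 (0.047 with the length offsets), with 2 higher and 1 lower in both pairs.

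Stem cell genes of the resting follicle were higher at 52 DPI. The bulge keeps the stem cells that start each new growth phase, marked by Cd34, Lgr5 and others. Of 14 members tested, 8 were higher in both pairs and 0 lower, against 19.5% higher in both pairs over all genes, and 6 did not overlap between times, against 10.4%. The median was 0.91, with 0.26 and 1.17 in the 2 pairs, and 0.83 with the length offsets, and no member passed the test. With 1 library left out it ran from 0.20, without 25 DPI replicate 2 and the block, to 1.18, without 25 DPI replicate 1 and the block. Lgr5, a receptor of R-spondins, had 46.2 and 17.8 CPM at 25 DPI and 74.2 and 76.5 at 52 DPI (1.39, SE 0.80). Dkk3, of the Dickkopf family, had 58.0 and 30.1 CPM and then 108 and 109 (1.37, SE 0.82). Sfrp1, a secreted Wnt antagonist, went from 65.0 and 76.4 CPM to 148 and 184 (1.22, SE 0.84). Each of the 3 was higher in both 52 DPI libraries than in either 25 DPI library, with an edgeR adjusted p of 1.

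Postn, a matrix protein, had 358 and 573 CPM at 25 DPI and 1438 and 1217 at 52 DPI. Cd34, a surface glycoprotein of the bulge, had 171 and 45.6 and then 180 and 202, so that nearly all of its difference lay in the replicate 2 pair. The transcription factors Lhx2 and Tbx1 were split, at 103 and 24.8 CPM and then 80.5 and 116 for Lhx2. The keratin gene Krt15 was also split, with 19140 and 7862 CPM and then 9628 and 8298, as was the growth factor gene Fgf18, with 104 CPM in 25 DPI replicate 1 and 11.3 to 14.7 in the other 3 libraries. Fgf18 is known as a telogen signal. In the iDKO libraries the list's median was 0.14, with 6 members higher and 1 lower in both pairs. Of the 15035 genes in both fits, 3084 were higher and 3664 lower in both iDKO pairs. Lgr5 had 39.3 and 39.2 CPM and then 69.7 and 20.4 in those libraries.

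Wnt signals start hair growth and maintain basal cells. Of 29 Wnt ligands, receptors and targets tested, 13 were higher in both pairs and 0 lower, 9 of them with no overlap, against 19.5% higher in both pairs and 10.4% not overlapping and higher over all genes, and the median was 0.65 (0.81 and 0.41 in the pairs, 0.63 with the length offsets). The list shares members with the stem cell list, Lgr5, Dkk3 and Sfrp1 among them, so the counts of the lists are not separate. Among the ligands, Wnt5a had 9.62 and 20.3 CPM at 25 DPI and 61.2 and 25.6 at 52 DPI (1.498, SE 0.80), Wnt7b had 20.1 and 89.98 and then 187 and 91.5, and Wnt6 had 8.38 and 8.77 and then 13.6 and 13.8. The gap was wide in the replicate 1 pair for Wnt5a and Wnt7b and slight in the other. Wnt3a, at 3.09 and 27.1 CPM and then 48.9 and 25.5, was split. Of the receptors, Fzd1 went from 35.1 and 40.1 CPM to 78.1 and 68.1, Fzd7 from 58.9 and 79.6 to 124 and 116, and Lgr4 from 44.7 and 84.9 to 86.0 and 121, each without overlap. The feedback targets behaved otherwise: Axin2 had 11.5 and 152 CPM and then 25.3 and 81.1, Nkd1 12.5 and 1.63 and then 3.13 and 3.37, and neither had the same sign in both pairs. In the iDKO libraries 7 members were higher and 9 lower in both pairs, with a median of -0.06. Of the 15035 genes in both fits, 3084 were higher and 3664 lower there in both pairs.

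Hedgehog signals through the receptor Ptch1 and the transducer Smo to the Gli factors. Of 11 members 6 were higher in both pairs and 1 lower, against 19.5% and 24.3% over all genes. The 1 lower member was lower by 2-fold or more in both pairs, and 0 of the higher ones rose that much in both. The median was 0.78 in genes whose exons had a median of 6869 bases, and 0.48 with the length offsets. Without 25 DPI replicate 1 the median was 0.41, and 0.095 without the block as well. The co-receptor gene Boc had 30.03 and 111 CPM and then 131 and 162, and Smo 29.6 and 134 and then 146 and 137. Hhip, which encodes a ligand-binding inhibitor, had 2.41 and 0.817 CPM and then 3.24 and 5.05. Gli1, a direct target, had 3.78 and 9.57 CPM and then 3.66 and 16.2, with opposite signs in the pairs. BMP and FGF signals of the hair cycle, such as Bmp2 (23.9 and 72.5 CPM and then 104 and 84.2), had 6 of 18 members higher and 1 lower in both pairs, against 19.5% and 24.3% over all genes, and a median of 0.34 (0.45 with the length offsets).

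**Figure D3:**
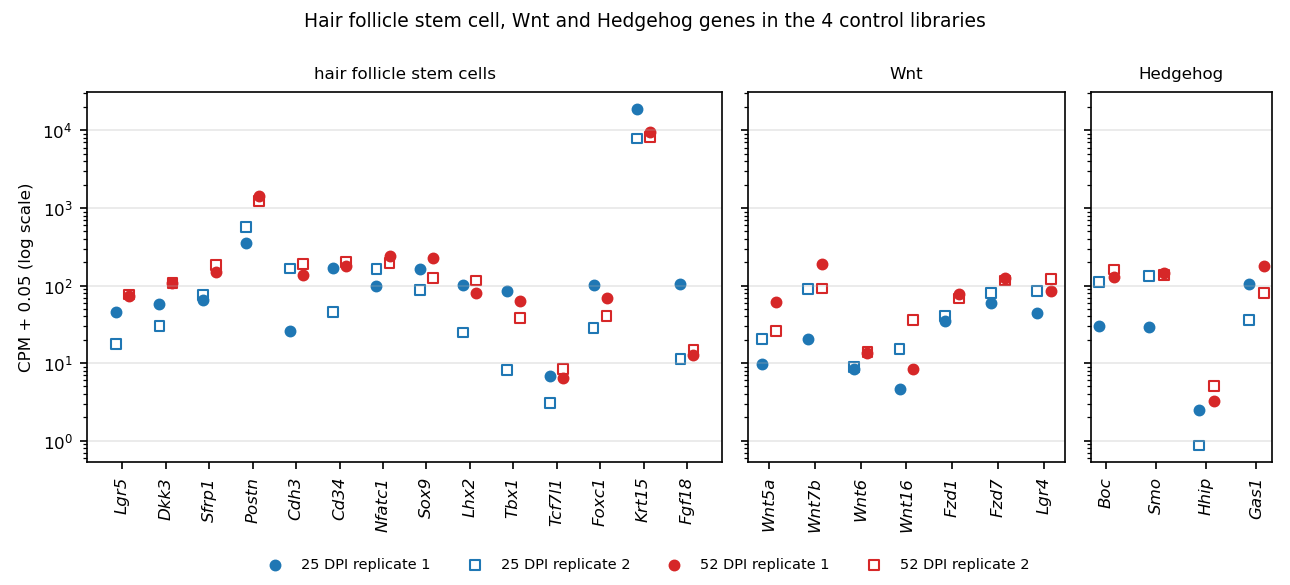
Level in CPM (log axis, 0.05 added) of the 14 hair follicle stem cell genes tested and of selected Wnt and Hedgehog genes in the 4 control libraries, blue for 25 DPI and red for 52 DPI, filled circles for replicate 1 and open squares for replicate 2. Lgr5, Dkk3, Sfrp1 and Postn have both red points above both blue ones, while Krt15 and Fgf18 are highest in 25 DPI replicate 1.

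The basal layer gave different answers in the 2 pairs. Of 17 basal genes 8 were higher in both pairs and 0 lower, against 19.5% and 24.3% over all genes. Their median, however, was 2.06 in the replicate 1 pair and 0.01 in the replicate 2 pair. The basal genes are long, with exons of 6776 bases at the median. Itgb4, the hemidesmosomal integrin subunit, had 59.0 and 822 CPM at 25 DPI and 624 and 859 at 52 DPI, and Lamb3, a chain of laminin-332, had 91.7 and 585 and then 797 and 692. The low value was that of 25 DPI replicate 1, and the other 3 libraries were close. Without that library the list's median was 0.052 (-0.13 with 3 control libraries and no block), against 0.85 with it, and with the length offsets it was 0.900. Krt5, the partner of Krt14, had 5511 and 15840 CPM and then 13690 and 17320.

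Spinous genes had no common direction, with 4 of 18 higher and 3 lower in both pairs and a median of -0.30, which was -0.17 with the length offsets and 0.11 without 25 DPI replicate 1. Krt1 had 1686 and 1831 CPM at 25 DPI and 884 and 2656 at 52 DPI, and Krtdap, a differentiation-associated secreted protein, 3977 and 282 and then 273 and 418. Hes1, a Notch target of early spinous cells, was lower in both pairs, with 199.8 and 239.9 CPM and then 146 and 59.5. Of 15 granular and cornified envelope genes tested, 5 were higher and 1 lower in both pairs (median 0.39, or 0.505 with the length offsets), against 19.5% and 24.3% over all genes. Tgm5, a transglutaminase, had 163 and 36.0 CPM and then 229 and 205, and Lor, which encodes the envelope protein loricrin, had 6.32 and 2.995 and then 11.9 and 7.04. Flg had 3 to 7 counts in each library and was not tested. In the late cornified envelope and small proline-rich families 7 of 36 genes were tested, and Sprr2a3 was the 1 with the same sign in both pairs, with 17.3 and 4.40 CPM and then 2.42 and 1.15 (-2.40, unadjusted p = 0.0086, edgeR). It fell in the iDKO libraries too (-2.87, adjusted p = 0.0394, edgeR). Barrier lipid genes had a median of 0.008 over 23 members (0.13 with the length offsets), with 7 higher and 3 lower in both pairs.

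Of 14 genes of activated keratinocytes, with keratins, proteases, growth factors and cytokine genes among them, 5 were higher and 1 lower in both pairs. Over all genes the shares were 19.5% and 24.3%. The list's median was 0.66 (0.051 and 1.41 in the pairs, 0.93 with the length offsets). With 1 library left out the median ran from 0.085 to 1.52, the latter without 25 DPI replicate 1. Krt16, a keratin of stressed and hyperproliferative epidermis and of follicles, had 37.9 and 28.4 CPM at 25 DPI and 85.1 and 147 at 52 DPI (1.77, SE 0.83, unadjusted p = 0.033, edgeR). Krt6b had 0.206 and 0.253 CPM and then 0.462 and 26.3, so that 1 library held nearly all of its difference, and its log2 fold change was 1.07 without 52 DPI replicate 2 (no block) against 4.64 in all 4. Mmp9, a matrix metalloproteinase, had 3.64 and 2.22 CPM and then 9.25 and 8.57 (1.65). Krt6a (63.2 and 24.5 CPM, then 42.3 and 143) and Krt17 (5612 and 961.9, then 1616 and 1184) were split between pairs. In the iDKO libraries Krt6a (2.63, adjusted p = 0.00754) and Krt6b (4.44, adjusted p = 0.0216) rose (edgeR), the latter from 0 and 0.22 CPM to 4.79 and 2.24.

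Proliferation genes had small median changes, with more members higher than lower in both pairs. Of 18 S phase genes 7 were higher and 2 lower in both pairs (median 0.062, or 0.14 with the length offsets). Of 21 genes of G2 and M phase 10 were higher and 5 lower (median 0.15, or 0.23). Over all genes 19.5% were higher and 24.3% lower in both pairs. Without overlap, 6 S phase genes were higher and 2 lower, and 4 and 0 of the G2 and M phase genes. The shares over all genes were 10.4% and 10.1%, and no member was called. Mki67, the proliferation marker, had 49.5 and 150 CPM and then 65.1 and 141. Mcm2, a subunit of the replicative helicase, had 33.3 and 40.4 CPM and then 83.0 and 69.1, and Mcm4 had 47.1 and 51.4 and then 83.0 and 88.3, with no overlap in either.

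T cell genes were lower at 52 DPI within each pair. Of 17 genes of dendritic epidermal gamma-delta T cells 14 were lower in both pairs and 0 higher, against 24.3% and 19.5% over all genes. The median was -1.06 (-1.57 and -0.51 in the pairs). Of the 17, 0 were free of overlap between times, against 10.1% not overlapping and lower over all genes. The exons of these 17 were short, 1436 bases at the median, and with the length offsets the median was -0.53. Of the gamma-delta receptor genes Trdc, the delta constant gene, had 61.2 and 20.1 CPM at 25 DPI and 37.4 and 17.3 at 52 DPI, and Trdv4 had 46.7 and 15.2 and then 29.4 and 13.9. Cd3g, of the CD3 complex, had 325 and 32.6 CPM and then 65.4 and 25.2. Gzmb, a granule protease, had 36.2 and 0.778 CPM and then 1.57 and 0.535 (-2.79, SE 1.02, unadjusted p = 0.0061, edgeR). In each case the replicate 1 library of 52 DPI lay above the replicate 2 library of 25 DPI, so the order of the times held only within pairs.

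Markers of alpha-beta T cells, which the sheet could also hold, had 9 of 15 members lower in both pairs, 0 higher and 4 without overlap, against 24.3% lower in both pairs and 10.1% not overlapping and lower over all genes. The median was -1.41 (-2.48 and -0.45 in the pairs, -1.38 with the length offsets). Cd8a had 57.8 and 4.32 CPM and then 3.77 and 1.99 (-2.58, SE 0.84, adjusted p = 0.75, edgeR), and Cd8b1 had 69.8 and 1.71 and then 4.13 and 0.765 (-2.78, SE 0.88). Trac, the alpha constant gene, had 60.9 and 3.62 CPM and then 8.996 and 1.84. The summed level of the list was 545 and 72.9 CPM at 25 DPI and 96.1 and 49.2 at 52 DPI, and that of the gamma-delta list 1522 and 298 and then 517 and 200.1. Without 25 DPI replicate 1 and without a block, the medians were 0.13 for the alpha-beta list and 0.48 for the gamma-delta list, so their sign rests on that library or on the pairing. Lat, an adaptor of the T cell receptor, Rac2, a GTPase of blood cells, Jaml, a junctional adhesion molecule of T cells and neutrophils, and Cd52, a lymphocyte surface antigen, were among the 15 lower genes that the naming rule took. Lat had 43.3 and 10.1 CPM and then 7.82 and 4.44, and Jaml 46.9 and 7.97 and then 7.11 and 4.05, both without overlap, while Rac2 (88.3 and 8.23, then 11.2 and 4.21) and Cd52 (263 and 10.2, then 13.7 and 8.18) overlapped. The chemokine gene Ccl5, expressed by activated T cells, had 39.0 and 1.44 CPM and then 1.60 and 0.459 (-3.34).

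In the iDKO libraries the T cell genes lay in the other order. There 14 of the 17 gamma-delta genes and 9 of the 15 alpha-beta genes were higher in both pairs and 0 lower, with medians of 1.59 and 1.00. Of the 15035 genes in both fits, 3084 were higher and 3664 lower in both iDKO pairs. Trdc had 29.5 and 14.4 CPM at 25 DPI and 48.2 and 86.7 at 52 DPI in those libraries. The interaction was not called for any gene, with an unadjusted p of 0.0243 for Trdc, 0.0252 for Cd3g and 0.0161 for Cd8a (edgeR).

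Langerhans cell genes did not move as 1 group. Csf1r, the receptor that these cells need, had 5.77 and 4.65 CPM at 25 DPI and 20.02 and 18.1 at 52 DPI (1.88, SE 0.77, unadjusted p = 0.015, edgeR). Tnfaip2 had 4.95 and 2.68 CPM and then 12.6 and 26.8 (2.34, SE 0.82, unadjusted p = 0.0045, edgeR), and Mfge8, a bridging protein for the uptake of dying cells, 56.1 and 16.5 and then 76.4 and 84.7. These 3 of 13 members were higher in both pairs, near the 19.5% over all genes. They were also without overlap, against 10.4% not overlapping and higher over all genes. Ctsh, a cathepsin, was lower in both pairs without overlap, at 152 and 73.1 CPM and then 62.5 and 50.4. Cd207, which encodes langerin, the defining marker, was split, at 38.6 and 4.82 CPM and then 27.7 and 46.5. The class II genes H2-Aa and Cd74 were split as well, Cd74 at 448 and 46.2 CPM and then 197 and 137. Median changes were -1.19 in the replicate 1 pair and 1.74 in the replicate 2 pair, and 0.25 in the fit, 0.67 with the length offsets and 1.71 without 25 DPI replicate 1. In the iDKO libraries 10 of the 13 were higher in both pairs, against 3084 of the 15035 genes in both fits. There Csf1r rose from 3.63 and 12.2 CPM to 41.8 and 27.8 (2.30, adjusted p = 0.0231, edgeR). Of 14 macrophage and monocyte genes 8 were tested, summing to 113 to 129 CPM in each library. Cd68, a lysosomal protein, was high in 25 DPI replicate 2 alone, at 61.4 CPM against 5.57 to 6.97, and C1qb had 0 to 8 counts in each library. Csf1r is on both lists and was the 1 macrophage gene higher in both pairs.

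Melanocyte genes were lower mainly in 1 pair. Of 11 members 5 were lower in both pairs and 1 higher, against 24.3% and 19.5% over all genes. The list's median of -1.69 was made of -2.15 and -0.20, and was -1.49 with the length offsets. Dct, an enzyme of melanin synthesis, had 228 and 15.8 CPM and then 13.97 and 20.04, and Pmel, a protein of the melanosome matrix, had 70.1 and 13.4 and then 10.6 and 8.26 (-1.72, unadjusted p = 0.029, edgeR). Mlana had 22.7 and 0.70 CPM and then 0.64 and 0.535. Without 25 DPI replicate 1 the list's median was -0.13. Merkel cells were not followed further, as 1 of their 10 markers, Krt8, had enough counts to be tested, at 0.569 to 1.92 CPM.

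**Figure D4:**
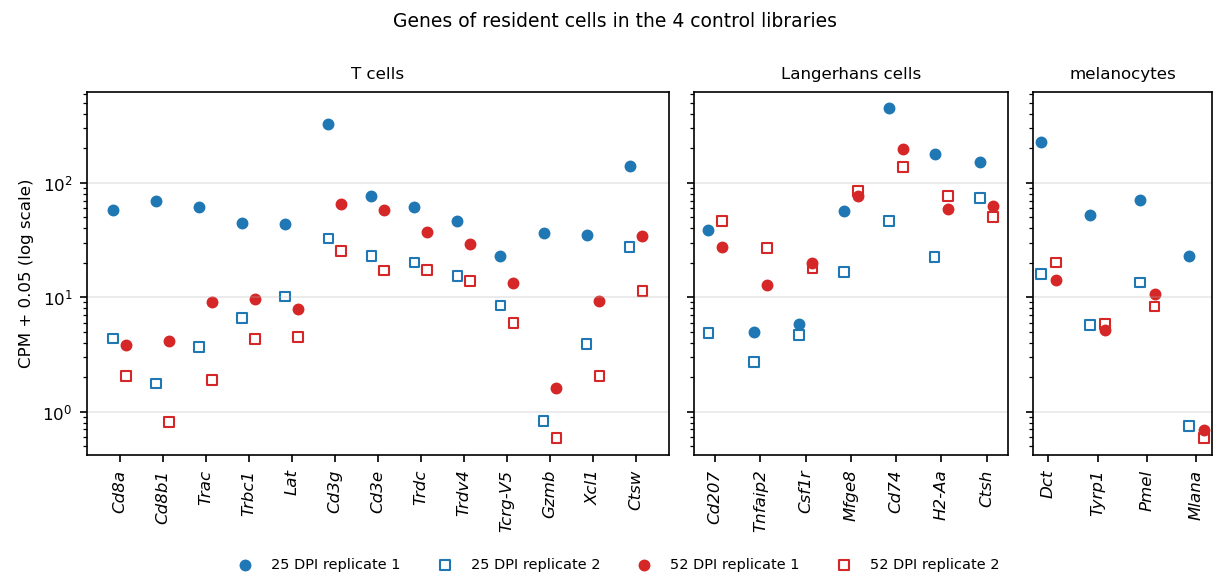
Level in CPM (log axis, 0.05 added) of genes of T cells, Langerhans cells and melanocytes in the 4 control libraries, blue for 25 DPI and red for 52 DPI, filled circles for replicate 1 and open squares for replicate 2. The T cell genes drawn are lower in red than in blue within each symbol, and all but Cd8a and Lat overlap across symbols, Csf1r and Tnfaip2 are higher in both red points, and Dct and Tyrp1 are high in 25 DPI replicate 1 alone.

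Markers of tissue below the epidermis were measured as well. The 12 of 16 fibroblast genes tested summed to 215 and 246 CPM at 25 DPI and to 309.8 and 406 at 52 DPI. Lum, Dpt, Cdh5, Kdr and Adipoq did not have enough counts to be tested, and Adipoq had 0 to 5 counts in each library. Hba-a1, a hemoglobin gene of blood, had 638 counts in 25 DPI replicate 1 and 25, 14 and 3 in the other libraries (43.8, 0.486, 0.498 and 0.229 CPM), so that its log2 fold change of -4.60 (adjusted p = 0.12, edgeR) rested on that library and was -0.35 without it. Acta1, the actin of skeletal muscle, had 3.78 and 2.35 CPM and then 0.391 and 0.535.

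Of the 12 fibroblast genes 3 were higher and 3 lower in both pairs, and 6 were split, with a median of 0.28 (0.14 with the length offsets). Col5a2, a fibrillar collagen, had 4.47 and 7.92 CPM at 25 DPI and 19.7 and 35.8 at 52 DPI (2.16, SE 0.75, unadjusted p = 0.0042, edgeR). Col6a1 had 27.5 and 55.6 CPM and then 108 and 151 (1.71), and Col6a2 had 9.41 and 11.6 and then 25.1 and 51.5 (1.78). By contrast Col3a1 had 2.61 and 16.6 CPM and then 0.96 and 1.15 (-2.64), and Col6a3 1.03 and 5.68 and then 0.142 and 1.22 (-2.48). Of the 12 tested, 3 higher and 2 lower genes did not overlap between times, Col5a2, Col6a1, Col6a2 and Col3a1 among them. Over all genes 10.4% did not overlap and were higher and 10.1% lower. In the list 0 of the 12 was called. The collagens Col1a1 (0.756 and 14.2 CPM, then 1.89 and 2.83), Col1a2 (2.96 and 15.3, then 9.42 and 11.2) and Col5a1 (3.71 and 3.36, then 3.2 and 7.65) were split between pairs.

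The rule for named genes took the 15 protein-coding genes in each direction ranked by unadjusted p, among genes whose log2 CPM averaged 3 or more and whose sign was shared by both pairs. Upward, Col8a2, a short-chain collagen, had 13.5 and 16.3 CPM at 25 DPI and 102 and 113 at 52 DPI (2.85, SE 0.83, adjusted p = 0.38, edgeR). Fscn1, an actin bundler, had 2.13 and 5.46 CPM and then 27.2 and 18.05 (2.67), Tnc, the matrix protein tenascin C, 3.71 and 16.04 and then 37.8 and 49.9 (2.48), and Shisa2, an inhibitor of Wnt and FGF receptor maturation, 40.4 and 5.43 and then 112 and 67.9 (2.55). Fscn1 (2.53, adjusted p = 0.00412), Tnc (2.56, adjusted p = 0.00478) and Shisa2 (2.16, adjusted p = 0.0216) rose in the iDKO libraries (edgeR). Ch25h, which makes 25-hydroxycholesterol, was the most even within times, at 4.19 and 3.71 CPM and then 17.7 and 17.7 (2.16), and went the other way in the iDKO libraries (-1.48).

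Other genes on the upper side were Ptgs2, the inducible cyclooxygenase (4.05 and 44.6 CPM, then 69.2 and 103), Ltbp2, a latent TGF-beta binding protein of microfibrils (10.6 and 28.5, then 53.8 and 122), Mrc2, an endocytic collagen receptor (1.10 and 19.9, then 32.4 and 30.1), and Zc3h12a, an RNase that limits inflammatory transcripts (14.4 and 52.4, then 83.4 and 235). Lrrk2 (0.687 and 8.98, then 14.9 and 23.9), S1pr3 (3.57 and 3.62, then 32.4 and 7.42), Crispld2 (4.26 and 27.8, then 117 and 36.6) and Nod2 (3.57 and 33.8, then 20.1 and 111) completed the 15 together with Tnfaip2 and Col5a2. Of the 15, 14 had no overlap between times, against 10.4% not overlapping and higher over all genes, and Nod2 did overlap. The genes were chosen by p and sign in these same libraries, so this count is a description.

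Downward, Pyy, the peptide YY gene, had 239 and 44.4 CPM at 25 DPI and 25.1 and 6.19 at 52 DPI (-3.05, SE 0.87, adjusted p = 0.33, edgeR). Avpr1a, a vasopressin receptor, had 104 and 11.2 CPM and then 5.26 and 5.89. Both were without overlap. Arl5c (11.8 and 25.2 CPM, then 4.91 and 2.14), Nupr1, a stress-induced chromatin protein (69.4 and 11.7, then 6.90 and 8.49), and Tmod4, a tropomodulin (32.8 and 18.1, then 6.72 and 7.95), also had no overlap. Of the 15 upper genes 11 and of the 15 lower ones 10 had the same sign of change in the iDKO libraries, 73.3% and 66.7%, which is near the 68.6% of all genes in both fits. The rule used these control values to choose the genes, so their direction and lack of overlap here are a description.

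Among the remaining groups, 10 of 19 type I interferon response genes were lower in both pairs and 2 higher, against 24.3% and 19.5% over all genes. Their median was -0.58 (-0.56 with the length offsets). Rtp4 had 15.3 and 1.83 CPM and then 2.06 and 0.612, and Ifi27l2a, an interferon-induced gene taken by the naming rule, 68.0 and 6.48 and then 14.4 and 2.22. Of 20 genes of antigen presentation and interferon-gamma 8 were lower and 3 higher in both pairs, Irf1 being among the latter at 205 and 106 CPM and then 315 and 298. The beta-defensin gene Defb1 had 154 and 39.0 CPM and then 21.4 and 22.3 (-1.83, unadjusted p = 0.03, edgeR). In cholesterol synthesis 4 of 18 were higher and 2 lower in both pairs. Clock genes had a median of 0.57 made of 1.08 and -0.042 in the pairs, which was 0.36 with the length offsets and 0.068 without 25 DPI replicate 1, with Bhlhe40 at 164 and 192 CPM and then 348 and 437. Of 18 glycolysis and hypoxia genes 6 were lower and 0 higher in both pairs (median -0.17, or -0.076 with the length offsets), against 24.3% and 19.5% over all genes.

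**Figure D5:**
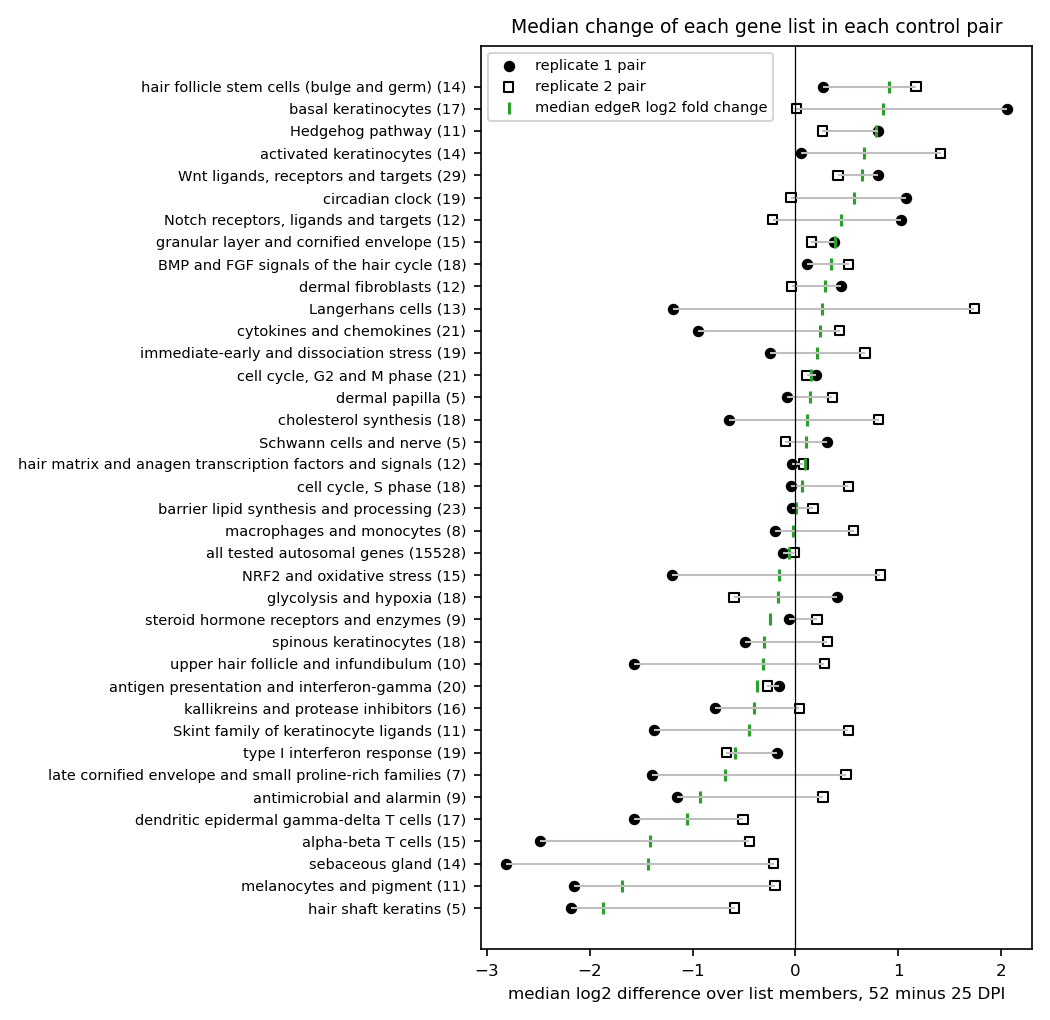
Median log2 difference (52 minus 25 DPI) of each gene list with at least 5 tested members, number tested in brackets, with filled circles for the replicate 1 pair, open squares for the replicate 2 pair and green ticks for the median edgeR log2 fold change. Sebaceous, hair shaft, melanocyte and T cell lists are below 0 in both pairs, and the stem cell, Wnt and Hedgehog lists above 0 in both, while several others, Langerhans cells among them, have opposite signs.

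Set beside each other, the 2 genotypes did not give a called difference of their change with time for any autosomal gene (0 of 17258 in the fit of all 8 libraries, 0%, edgeR; 362 or 2.1% had an unadjusted p under 0.05, and DESeq2 also called 0). The iDKO libraries alone gave 74 called genes of 15888 (0.466%), with 795 (5%) at an unadjusted p under 0.05. The iDKO contrast uses no control library but has the same sexes, replicate numbers and strand shares at each time. Its CPM were scaled within the 4 iDKO libraries, so levels of the 2 genotypes are not on 1 scale.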

How the data were processed

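Epidermal RNA of 8 samples was sequenced, and the 4 control samples carry the comparison. The authors deposited raw read counts per gene in 3 columns (without strand, first and second strand), of which the first was used. FastQC 0.11.9, Trimmomatic 0.35, STAR 2.5.2a, DESeq2 1.24.0 and GRCm38/mm10 are named in the submitters' processing notes, without roles. From these counts, edgeR 4.0.16 in R 4.3.3 (filterByExpr, TMM, quasi-likelihood test, replicate number plus time) tested 16049 genes with Benjamini-Hochberg adjustment over all of them, of which 15528 autosomal genes are reported and 521 are not. Pair differences are log2(CPM + 0.5) at 52 minus 25 DPI within a replicate number. The script was tested on simulated data. Totals were 13024905 to 50711381 counts per library.

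Genes were named by 2 rules: the 15 protein-coding genes of smallest unadjusted p each way, where log2 CPM averaged 3 or more and both pairs shared a sign, and from each of 45 gene lists the first 2 members and up to 4 of smallest p. Members and lists were chosen with earlier results of these data known. Alternatives were other designs, DESeq2 1.42.0, limma-voom 3.58.1, other scalings, filters and columns, each library left out, and, added after seeing the data, offsets for exon length. Promoter windows are RefSeq's (GRCm38.p6). Some genes that the rules took are not reported here.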

Additional observations from a re-analysis of the deposited data

Results flagged for a closer look

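In 3 gene lists the median change with time had 1 sign in both control pairs and the opposite sign in both iDKO pairs. The difference between the genotypes was not tested for any of these lists. For dendritic epidermal gamma-delta T cell genes the median was -1.06 in control (-1.57 and -0.51 in the pairs) and 1.59 in iDKO libraries (0.32 and 2.49), a difference of 2.65. For alpha-beta T cell genes it was -1.41 in control (-2.48 and -0.45) and 1.00 in iDKO libraries (0.094 and 1.72), a difference of 2.42. For BMP and FGF signals of the hair cycle it was 0.34 in control (0.11 and 0.52) and -0.34 in iDKO libraries (-0.15 and -0.26), a difference of -0.69. The control medians of both T cell lists rested on 25 DPI replicate 1 or on the pairing, being -0.12 and -0.24 without that library in the blocked fit of the others, and 0.48 and 0.13 with 3 control libraries and no block.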

How the results depend on the processing

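The replicate numbers share a strand share, and deviations from the group means correlated at 0.506 between the 25 and 52 DPI libraries. The change with time itself correlated at -0.0995 between the 2 pairs over 15528 genes. The labels do not say what a number stands for, and 2 pairs cannot settle it. The 7 genes called lower became 0 without the replicate block, 0 in all 8 libraries with the block and 0 in all 8 without it, 14 with DESeq2 and 16 with limma-voom, 5 with the length offsets (without Acoxl and Gm12912), 6 with no filter on low counts (without Ccr6 and Acoxl, with 1 other), and 0 to 15 with 1 library left out. The 0 called higher became 1 with DESeq2 and 1 with limma-voom, and stayed 0 with 1 library left out. The 74 genes called in iDKO libraries became 0 without the replicate block, 0 in all 8 libraries, and 0 to 5 with 1 library left out. The interaction stayed at 0 under each alternative run. The cause was not tested.

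Of 87 genes followed, 17 changed sign under some alternative, of which 1, Krt1 (-0.20), did so by other than a left-out library: 0.009 without the block, 0.008 in all 8 libraries with the replicate block and 0.068 in all 8 without it. With 1 library left out, log2 fold changes spanned -0.905 to 0.713 for Krt1, -1.22 to 0.40 for Krt10, -0.012 to 1.56 for Krt5, -0.13 to 3.71 for Itgb4, -0.17 to 4.24 for Wnt3a, -2.87 to 0.29 for Fgf18, -4.27 to 0.11 for Scd3, -3.70 to 0.21 for Dct, -0.33 to 3.31 for Cd207, -1.12 to 0.53 for Trdv4, -2.79 to 0.50 for Cd3g, -5.05 to 0.48 for Gzmb, -4.09 to 0.61 for Trac, -5.49 to 0.55 for Cd8b1, -4.52 to 0.13 for Cd52, -4.03 to 0.39 for Ifi27l2a and -4.34 to 0.37 for Hsd11b1. With 2 libraries a time and 1 residual degree of freedom, the number of libraries limits the precision.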
